A study of Mus musculus with 12 samples.

Results

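The MYC and MAX network is a family of transcription factors that pair with each other through a helix-loop-helix and leucine zipper. Here 10 of its genes, chosen by name among the 24062 genes in the count files, are described. They were measured with and without dietary tryptophan (Trp), in livers of MYC transgenic mice and in tumors grown from mouse liver cancer cells. They are the MYC paralogs Myc, Mycn and Mycl, their common partner Max, the repressors Mxd1, Mxi1, Mxd3, Mxd4 and Mnt, and the MAX-like gene Mlx. The series compared a control diet, labelled as the complete diet, with a diet lacking Trp (No-Trp) for 21 days in 2 models, with 1 RNA-seq library per mouse and 3 mice per group. The first model is the liver of MYC-ON mice on an FVB background. They carry TRE-MYC, a human MYC transgene, and LAP-tTA, a liver promoter that drives the tetracycline transactivator in hepatocytes, and MYC comes on when doxycycline is withdrawn at birth. Mice 101, 102 and 103 were on the control diet and mice 105, 107 and 108 on the No-Trp diet. The second model is a tumor grown in immunodeficient mice, labelled NOD-SKID, from HCC53N, a single line of mouse liver cancer cells which lacks p53 and overexpresses mutant NRAS. Mice 41, 43 and 40 were on the control diet and mice 35, 36 and 37 on the No-Trp diet. The labels call the tumor cells MYC ON too, which leaves unsettled whether the line carries a transgene. The host's cells are also of mouse and add reads to these libraries. The age of these mice is not given in the labels.

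MYC needs MAX to bind DNA, and the MYC-MAX pair activates genes of cell growth through the E-box CACGTG. MXD proteins and MNT compete for MAX and recruit the SIN3 and histone deacetylase corepressor to the same sites. MLX belongs to a neighboring branch that shares MNT and some MXD proteins and pairs with the glucose sensors MondoA (Mlxip) and ChREBP (Mlxipl), of which ChREBP drives sugar and fat metabolism in the liver.

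The E-box was searched in the RefSeq promoter windows of the members (GRCm38.p6, 250 bases before to 50 after a transcript start), because members of the network can themselves carry the sequence that the network binds. Windows were found for 9 of the 10 members, 11 windows in all, and none for Myc. CACGTG, which reads the same on both strands, was in the windows of Max, Mxd4, Mnt and Mlx and in none of those of Mycn, Mycl, Mxd1, Mxi1 and Mxd3. It was in the windows of 9.18% of the genes in the count files, of 44.4% of the members with a window (4 of 9), and of 11 of the 41 listed MYC-activated genes with a window. The 80 bases around each match in a member follow, 5′ to 3′ on the gene's strand with the E-box in capitals. They lie at chr12:76962209-76962288 (minus strand) for Max, chr5:34187881-34187960 (minus strand) for Mxd4, chr11:74830764-74830843 (plus strand) for Mnt and chr11:101087213-101087292 (plus strand) for Mlx.
Max: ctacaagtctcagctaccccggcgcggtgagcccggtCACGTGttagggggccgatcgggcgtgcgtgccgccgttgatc
Mxd4: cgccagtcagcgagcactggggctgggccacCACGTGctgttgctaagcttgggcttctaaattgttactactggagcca
Mnt: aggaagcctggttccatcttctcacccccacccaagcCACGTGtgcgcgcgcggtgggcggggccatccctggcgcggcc
Mlx: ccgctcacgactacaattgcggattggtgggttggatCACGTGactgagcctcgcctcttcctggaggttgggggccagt
The first base of the E-box lay 3 bases before the start in Max, 40 in Mlx, 123 in Mnt and 219 in Mxd4. A match describes the letters of the window and was not tested as a binding site.

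Levels are given as CPM, read counts scaled to a common library size with TMM over all 12 libraries, and levels of different genes are compared only per length, as CPM divided by the exon length in kilobases (FPKM). Each library held 14660963 to 26085349 reads on genes, so counting error mattered only for the lowest members. edgeR estimated a spread between mice of 31.6% in the livers and 28.7% in the xenografts. In the check of the engineered genes, Trp53 was lower in the xenografts than in the livers but not at 0 (17.5 to 22.8 against 46.7 to 133 CPM), and Nras was higher (233 to 483 against 46.7 to 105 CPM). All 7 hepatocyte markers were detected in the xenografts but at a summed 304 to 816 CPM, against 7704 or more in the livers. The 3 cholangiocyte markers summed to 320 to 785 CPM in the xenografts and to 12.9 to 37.2 CPM in the livers, mainly through Krt19 and Sox9. Epcam overlapped between the models on the control diet (5.94 to 19.9 against 3.78 to 12.8 CPM) but not on the No-Trp diet (11.5 to 19.7 against 4.59 to 8.64 CPM). In the livers the sums of 5 of the marker lists did not overlap between diets, where 48.6% of all genes tested did not. The hepatocyte markers summed to more on the No-Trp diet (45040 to 115000 against 7704 to 36270 CPM). Alb was the largest part (30220 to 88180 against 4522 to 25600 CPM), and Apoa1, Cyp2e1 and G6pc overlapped between diets. The 4 fetal or tumor liver markers H19, Igf2, Afp and Gpc3 summed to less (2262 to 13490 against 23280 to 29270 CPM), with liver 107 lowest. H19 was the largest part of that sum, and Gpc3 overlapped. The 5 erythroid markers summed to less too (7.15 to 18.1 against 45.1 to 496 CPM, with Hba-a1 and Hbb-bt at 0 throughout). So did the 4 adipocyte markers (14.6 to 20.6 against 30.7 to 41.7 CPM), mainly through Fabp4 (12.8 to 18.5 against 28.5 to 39.8 CPM). Adipoq and Plin1 were at 0.466 CPM or less in every liver, and Cfd overlapped between diets. The 3 lymphocyte markers were at 1.79 CPM or less throughout. Control liver 101 had 12.1% of its reads on Rn45s, a ribosomal RNA precursor, against 0.261% to 2.22% in the other livers, and 36.1% of its reads fell off genes, against 24.7% to 28.6%. These are bulk samples, in which fewer cells of a type and less RNA per cell cannot be told apart. The part of cell makeup and RNA quality in the results was not tested. The livers may hold tumor and other tissue. The share of tumor in each was not measured here and cannot be told apart from the diet. With Rn45s left out Mycl, Max and Mxd3, the members called in the livers, were at 2.87, −0.68 and −2.38 on the log2 scale (edgeR adjusted p = 0.0186, 0.0290 and 0.0229), close to the values given for them here. That fit mainly changes the scaling of the libraries, so it is no test of RNA quality or cell makeup.

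Per length, Max was the highest of the members in the control livers with 52.6 ± 8.08 FPKM (SD, n = 3), followed by Mlx (20.6 ± 2.69), Myc (13.4 ± 1.96) and Mxi1 (12.8 ± 1.86), and only Myc and Mxi1 of these neighbors were not in the same order in every mouse. Mnt was at 8.41 ± 1.99 FPKM. Mxd3, Mxd4 and Mxd1 followed at means of 4.25 to 5.67 FPKM, in an order that changed between mice. Mycl (0.963 ± 0.452 FPKM) and Mycn (0.266 ± 0.125 FPKM) were lowest. Myc stands throughout for reads counted on the mouse gene, which are no measure of the human transgene that drives these livers, so neither its rank here nor its difference from the xenografts is one of total MYC. In the control xenografts Myc itself came first with 101 ± 17.7 FPKM, ahead of Max (60.4 ± 4.26 FPKM) in every mouse, and Mxi1, Mlx and Mnt at 15.7 to 21.8 FPKM did not keep 1 order across mice.

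**Figure D1:**
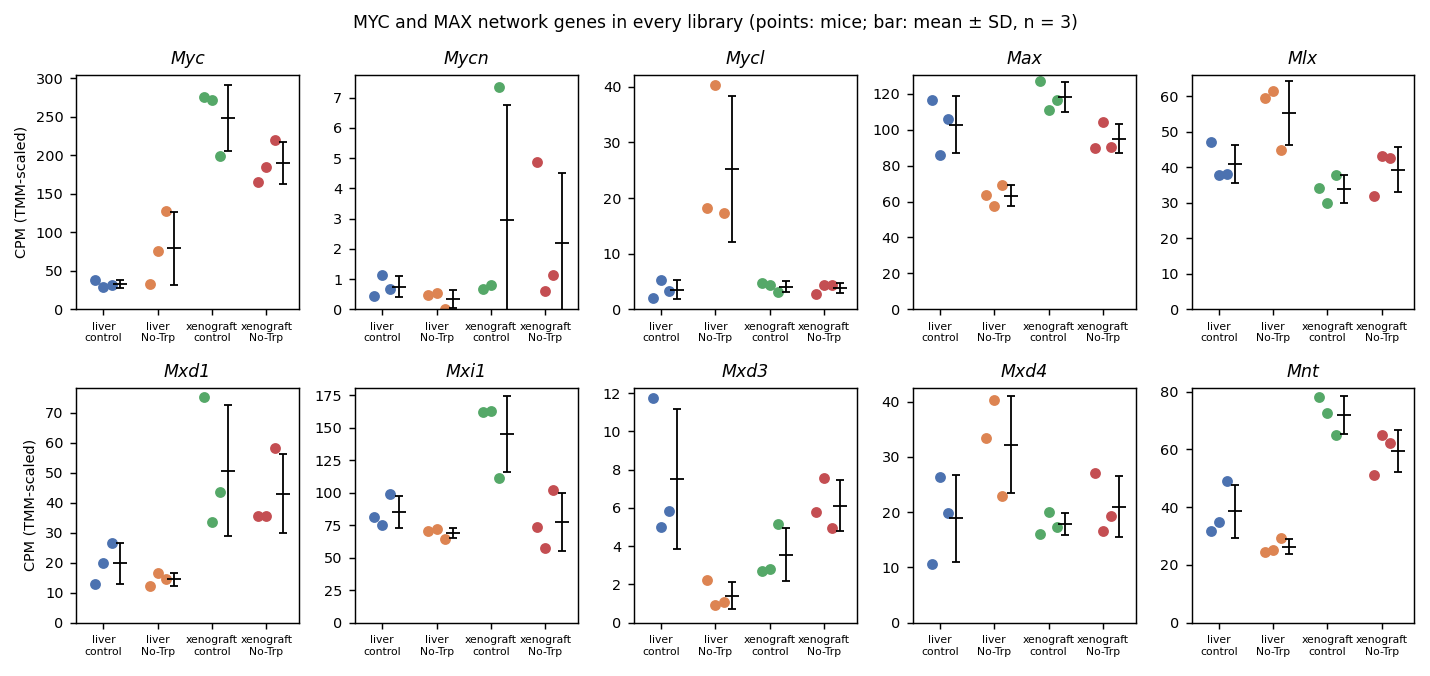
CPM of the 10 network genes in each of the 12 libraries (points, 1 per mouse), grouped by model and diet, with the mean and SD of each group (n = 3, SD bars cut at 0); each panel has its own axis. Mycl stands out in the 3 No-Trp livers (17.3 to 40.3 CPM), Mxd3 is lowest there (0.923 to 2.23 CPM), and Myc is highest in the xenografts (165 to 275 CPM).

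Whether Trp starvation changed the network in MYC-ON livers was asked first. Of the 9 members tested, Mycl rose and Mxd3 fell past both thresholds (a Benjamini-Hochberg adjusted p no larger than 0.05, and a change of 1 or more on the log2 scale), Max fell past the adjusted p alone, and the other 6 did not pass. Mycn was too low to be tested. Among all 14122 genes tested, 9.28% were higher and 7.27% lower at both thresholds, and 25.3% passed the adjusted p alone, so 3 of 9 members at that threshold is near the background. The mice of one diet lay wholly above those of the other for 5 members (Mycl, Max, Mxi1, Mxd3 and Mnt), against 48.6% of all genes. The calls over all genes were themselves sensitive to single livers: at the adjusted p alone 1874 were higher and 1696 lower, and these became 181 and 118 without control liver 101, 7 and 1 without control liver 103, and 300 and 70 without No-Trp liver 105.

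Mycl (chromosome 4, 122995652 to 123002485), a paralog with a weaker growth-promoting activity than Myc, had 42, 94 and 81 reads in control livers 101, 102 and 103, or 2.03, 5.30 and 3.23 CPM. In No-Trp livers 105, 107 and 108 it had 317, 655 and 222 reads, or 18.1, 40.3 and 17.3 CPM. Each No-Trp liver was more than 3 times above the highest control liver. The mean went from 3.52 ± 1.65 to 25.2 ± 13.1 CPM (SD, n = 3 each), which is 2.87 on the log2 scale (standard error, SE, 0.49, edgeR adjusted p = 0.0182). With each mouse left out the value stayed between 2.34 and 3.25, and the adjusted p rose to 0.0554 without control liver 101 and to 0.0873 without control liver 103.

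Myc (chromosome 15, 61985391 to 61990374) was at 38.2, 29.1 and 30.9 CPM in control livers 101, 102 and 103 and at 33.3, 76.1 and 128 CPM in No-Trp livers 105, 107 and 108. Liver 105 lay within the range of the control livers, and the other 2 were above all of them. The log2 fold change was 1.29 (SE 0.44) and did not pass the threshold (edgeR adjusted p = 0.0705). It passed with DESeq2 (adjusted p = 0.0195), in a single fit over all 12 libraries (0.0210) and without liver 105 (log2 fold change 1.66, adjusted p = 0.0420), and it was 0.77 without liver 108. Libraries 101 and 108 carry a mark of resubmission. Within the libraries without it, Myc was at 29.1 and 30.9 against 33.3 and 76.1 CPM, and within those with it at 38.2 against 128 CPM. Reads of the human transgene that aligned to the mouse gene would be counted on Myc, and in these counts they cannot be told apart from those of the mouse gene. The count of human MYC itself was not analysed here.

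Mycn, the paralog known from the nervous system and embryo, had 9, 20 and 17 reads in the control livers and 8, 9 and 0 in the No-Trp livers. A count of 0 in liver 108 allows up to 3 reads, so a difference was not detectable at this depth. The MYC paralogs together, as counted on the mouse genes, summed to 14.6 ± 1.48 FPKM in control and 39.3 ± 19.2 FPKM in No-Trp livers (SD, n = 3). Mycl made 6.79% ± 3.59 of that sum in the former and 20.3% ± 10.4 in the latter. This sum is no measure of total MYC, because the human transgene was not analysed here. The smallest sum in a No-Trp liver, 18.8 FPKM in liver 105, was above the largest in a control liver, 16.3 FPKM.

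Max (chromosome 12, 76937269 to 76962201), without which MYC does not bind its sites, was at 117, 85.7 and 106 CPM in the control livers and at 63.5, 57.5 and 69.0 CPM in the No-Trp livers. The groups did not overlap. Its log2 fold change was −0.69 (SE 0.17, edgeR adjusted p = 0.0299). The call was lost without control liver 101 or 103 or No-Trp liver 105 or 107 (adjusted p = 0.0660 to 0.101), while the log2 fold change stayed between −0.82 and −0.59. Since Max was lower and the summed paralogs higher, the paralogs over Max, per length in the same library, were 0.280 ± 0.0307 in control and 1.21 ± 0.554 in No-Trp livers (SD, n = 3), with no overlap (0.254 to 0.314 against 0.578 to 1.61). The human transgene that drives these livers is not measured in it, so this ratio is not one of total MYC to Max. With 3 mice against 3, an exact two-sided permutation test of this ratio cannot give a p under 0.1. For the MXD family and Mnt the same ratio to Max was 0.694 ± 0.115 and 0.892 ± 0.158, and the ranges overlapped.

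Among the repressors Mxd3 (chromosome 13, 55325168 to 55329823), the MXD member known to be expressed in S phase of dividing cells, was the only member of the family that passed. It had 243, 89 and 146 reads in control livers 101, 102 and 103 (11.7, 5.02 and 5.83 CPM) and 39, 15 and 14 reads in No-Trp livers 105, 107 and 108 (2.23, 0.923 and 1.09 CPM). The highest No-Trp liver was under the lowest control liver, and control liver 101 stood above the other controls. The log2 fold change was −2.38 (SE 0.49, edgeR adjusted p = 0.0231). With each mouse left out it stayed between −2.88 and −1.92, and the adjusted p was 0.0614, 0.0873 and 0.0510 without control livers 101 and 103 and No-Trp liver 105. Exons of Mxd3 share 105 bases with those of Prelid1 on the other strand, and the strand setting of the counting is not given, so its counts may hold some reads of that gene or miss some in the overlap.

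The other repressors did not pass. Mnt, the most widely expressed MAX repressor, was at 31.8, 35.0 and 49.0 CPM in the control livers and at 24.4, 25.2 and 29.4 CPM in the No-Trp livers, without overlap (log2 fold change −0.54, SE 0.21, edgeR adjusted p = 0.0979). Mxi1, also named Mad2, was at 81.6, 74.8 and 98.9 against 70.2, 72.1 and 64.5 CPM (log2 fold change −0.29, SE 0.16, edgeR adjusted p = 0.210). The control livers lay above the No-Trp livers in both genes, and neither gene passed the test. Mxd1, first described in differentiating cells, ranged from 12.9 to 26.6 CPM in control and from 12.2 to 16.4 CPM in No-Trp livers, with a log2 fold change of −0.45 (SE 0.30, edgeR adjusted p = 0.289). Mxd4 was at 10.6, 26.3 and 19.8 CPM in control livers and 33.5, 40.3 and 22.9 CPM in No-Trp livers (log2 fold change 0.79, SE 0.36, edgeR adjusted p = 0.139), and liver 108 lay among the controls. By these values Mxd3 made 20.8% ± 10.8 of the summed FPKM of the MXD family in control livers and 4.70% ± 2.25 in No-Trp livers (SD, n = 3). Exons of Mxd4 share 514 bases with the antisense gene Gm42846 and those of Mxi1 share 194 bases with Gm10197 on the other strand, so both counts are uncertain in those stretches.

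Mlx (chromosome 11, 101087277 to 101092207), the dimer partner of MondoA and ChREBP, was at 47.1, 37.7 and 38.1 CPM in control livers and at 59.4, 61.6 and 44.8 CPM in No-Trp livers. Control liver 101 was above No-Trp liver 108, and the log2 fold change of 0.45 (SE 0.19) did not pass (edgeR adjusted p = 0.111). Exons of Mlx share 385 bases with those of Psmc3ip on the other strand. Its partners did not pass either, with log2 fold changes of 0.56 for Mlxipl (edgeR adjusted p = 0.159) and −0.46 for Mlxip (edgeR adjusted p = 0.123), nor did Mga, a MAX partner that also holds a T-box domain, at −0.39 (edgeR adjusted p = 0.309).

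**Figure D2:**
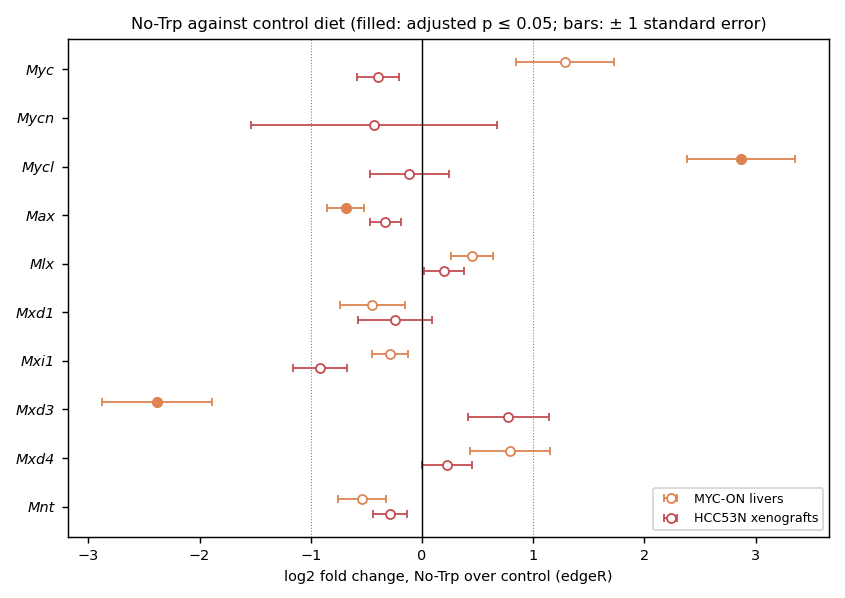
Log2 fold change of each member on the No-Trp against the control diet (x axis; edgeR) in MYC-ON livers and HCC53N xenografts, with bars of 1 standard error (SE), filled points for an adjusted p of at most 0.05 and dotted lines at the fold threshold. In the livers Mycl (2.87), Max (−0.69) and Mxd3 (−2.38) are filled; no xenograft point is, and Mycn has no liver value because it was too low to test.

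In the HCC53N xenografts the same diet moved no member past the thresholds. The count was 0 of 10 with edgeR and 0 of 10 with DESeq2 at both thresholds. With edgeR, 2 members (Max and Mxi1) had an unadjusted p under 0.05, against 9.07% of all genes lower at that p, and with DESeq2 Mxi1 passed the adjusted p alone, as 1.52% of 19506 genes did in that direction and 1.75% in the other. Few genes passed in this comparison at all: of 14704 genes, 0.245% were higher and 0.116% lower at both thresholds, and 0.374% passed the adjusted p alone. The groups did not overlap for Max, Mxi1 and Mnt, 3 of 10 members, against 22.6% of all genes.

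Mxi1 (chromosome 19, 53310518 to 53375810) had the largest log2 fold change in size. It was at 162, 163 and 112 CPM in control xenografts 41, 43 and 40 and at 73.4, 57.7 and 102 CPM in No-Trp xenografts 35, 36 and 37. Control 40 lay close to No-Trp xenograft 37. The log2 fold change was −0.91 (SE 0.24, edgeR adjusted p = 0.139), and DESeq2 gave an adjusted p of 0.0249. Controls 41 and 43 carry the mark of resubmission and no No-Trp xenograft does, and with that mark as a covariate the log2 fold change was −0.53 (edgeR adjusted p = 0.450), which rests on control 40 as the only unmarked control.

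Max was at 127, 111 and 117 CPM in control xenografts 41, 43 and 40 and at 89.9, 104 and 90.6 CPM in No-Trp xenografts 35, 36 and 37 (log2 fold change −0.33, SE 0.14, edgeR adjusted p = 0.276). Mnt was at 78.3, 72.4 and 65.1 against 51.0, 64.9 and 62.2 CPM (log2 fold change −0.29, SE 0.15, edgeR adjusted p = 0.384). Both were lower in every No-Trp xenograft than in any control, in Mnt by as little as the gap between 65.1 and 64.9 CPM.

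Myc was at 275, 271 and 198 CPM in the controls and at 165, 185 and 219 CPM in the No-Trp xenografts, and control 40 fell among the latter (log2 fold change −0.40, SE 0.19, edgeR adjusted p = 0.324). Mxd3 was at 2.67, 2.80 and 5.15 CPM in the controls and at 5.80, 7.57 and 4.96 CPM in the No-Trp xenografts (log2 fold change 0.78, SE 0.36, edgeR adjusted p = 0.326), and here too control 40 lay within the No-Trp range. Mycn divided the tumors in another way. It had 150 reads in control 40 and 134 in No-Trp xenograft 35, but 13 to 27 in the other 4, so each diet had 1 tumor with 4.86 or 7.36 CPM and 2 at 1.15 CPM or less. Its log2 fold change of −0.43 had a SE of 1.11. The remaining members overlapped between diets. Mycl ranged from 2.72 to 4.75 CPM, Mxd1 from 33.6 to 75.2 CPM, Mxd4 from 16.1 to 27.1 CPM and Mlx from 29.9 to 43.2 CPM over the 6 xenografts, with edgeR adjusted p-values of 0.612 to 0.904. The adipocyte markers, which summed to 11.4 to 66.6 CPM in the control and 351 to 736 CPM in the No-Trp xenografts, moved with the diet, and their part in these values was not tested.

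The paralogs summed to 104 ± 16.6 FPKM in control and 79.4 ± 10.9 FPKM in No-Trp xenografts (SD, n = 3), of which Myc was 95.9% to 98.7% in every tumor. Their ratio to Max was 1.72 ± 0.285 and 1.65 ± 0.284. For the MXD family and Mnt the ratio to Max was 0.920 ± 0.0910 and 0.912 ± 0.162. The differences between diets in both ratios were smaller than the SD.

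**Figure D3:**
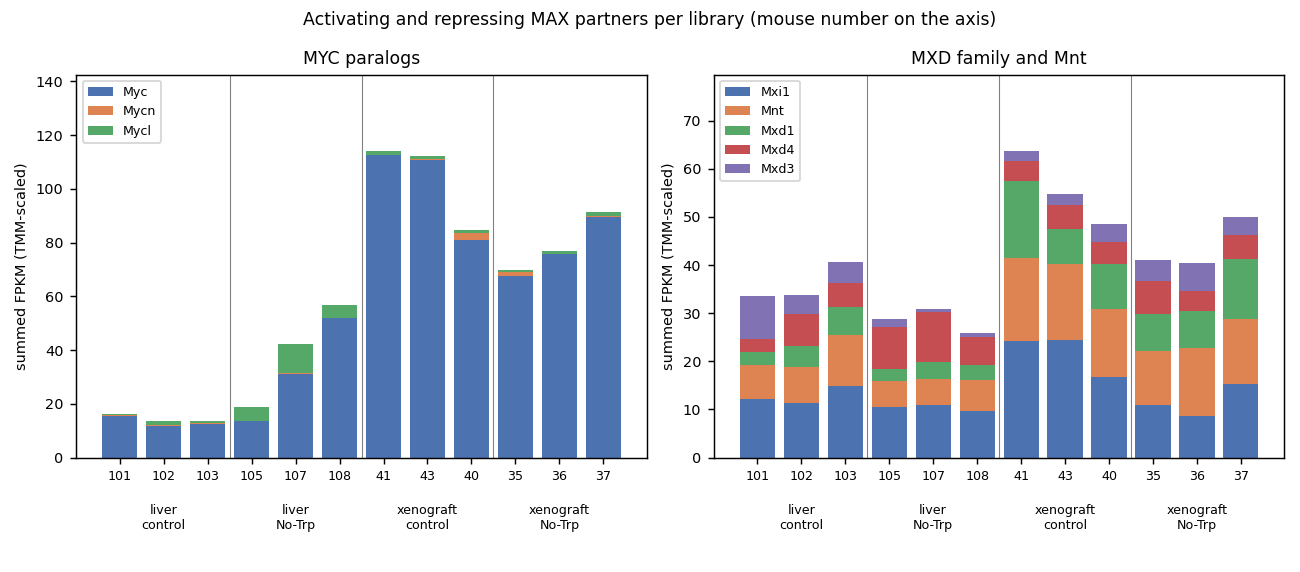
Summed FPKM of the MYC paralogs, as counted on the mouse genes (left), and of the MXD family with Mnt (right) in each library, stacked by gene, with the mouse number under each bar and the groups divided by lines. Mycl (green, left) is visible mainly in the No-Trp livers, Mxd3 (purple, right) is thinnest there, and Myc makes up nearly all of the left bars of the xenografts.

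The difference between the diet effects of the models was then tested with the interaction term over all 12 libraries, which share the samples of both diet comparisons. Of the 10 members, 3 passed both thresholds: Mxd3 was higher and Myc and Mycl were lower in the effect of the xenografts minus that of the livers. Among all 15472 genes tested, 6.70% were higher and 6.01% lower at both thresholds, and 15.6% passed the adjusted p alone. For Mxd3 the difference was 3.18 on the log2 scale (SE 0.64, edgeR adjusted p = 0.0115), from an effect of −2.38 in livers and 0.78 in xenografts. For Mycl it was −2.95 (SE 0.60, edgeR adjusted p = 0.0117), from 2.87 and −0.11. Both passed in each of 12 fits with 1 library left out. For Myc it was −1.66 (SE 0.51, edgeR adjusted p = 0.0459), from 1.29 and −0.40, and it passed in only 1 of those 12 fits, without No-Trp liver 105, while its value stayed between −2.03 and −1.13. With resubmission as a covariate the value for Myc was −1.09 (edgeR adjusted p = 0.105). The other 7 members did not pass (edgeR adjusted p = 0.194 to 0.811).

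The models themselves differed in more members than the diets did. Tissue, site, host strain, cell origin and the share of host cells all differ between the models and cannot be told apart. The study's methods describe male MYC-ON mice and female xenograft hosts, with repeats in males, so sex may differ between the models too. On the control diet Myc and Mxd1 were higher and Mxd3 lower in xenografts than in livers at both thresholds, and Mxi1 and Mnt passed the adjusted p alone. The background was high, with 23.3% of genes higher, 20.2% lower and 59.5% past the adjusted p alone, so 5 of 10 members is not above it. Groups without overlap were found for 4 members (Myc, Mxd1, Mxi1 and Mnt), against 65.1% of genes. Myc was at 29.1 to 38.2 CPM in the livers and 198 to 275 CPM in the xenografts, on the mouse gene alone, a log2 fold change of 2.92 (SE 0.38, edgeR adjusted p = 4.41e-05) that stayed between 2.81 and 3.06 with each library left out. Mxd1 was at 12.9 to 26.6 against 33.6 to 75.2 CPM (log2 fold change 1.36, SE 0.34, edgeR adjusted p = 0.00411). Mnt (log2 fold change 0.90) and Mxi1 (0.77) had edgeR adjusted p-values of 0.00108 and 0.00816. The call of Mxd3, with a log2 fold change of −1.09 and an edgeR adjusted p of 0.0491, held in 4 of 12 fits with a library left out. Mycn (1.98), Mycl (0.22), Max (0.20), Mxd4 (−0.09) and Mlx (−0.27) did not pass (edgeR adjusted p = 0.132 to 0.833).

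On the No-Trp diet, Myc, Mxd1, Mxd3 and Mnt were higher and Mycl lower in xenografts at both thresholds, and Max and Mlx passed the adjusted p alone. Of all genes 24.5% were higher and 19.1% lower, 59.6% passed the adjusted p alone, and 66.9% had groups without overlap, as 8 of the 10 members did. Mycl was at 17.3 to 40.3 CPM in these livers and 2.72 to 4.37 CPM in the xenografts (log2 fold change −2.73, SE 0.43, edgeR adjusted p = 1.82e-04). Mxd3, which was lower in the xenografts on the control diet, was higher on the No-Trp diet (log2 fold change 2.10, SE 0.46, edgeR adjusted p = 0.00199). The log2 fold change of Myc was 1.27 (SE 0.36, edgeR adjusted p = 0.00951), of Mxd1 1.58 (0.34, 0.00165) and of Mnt 1.18 (0.18, 1.59e-04). Max (0.58, edgeR adjusted p = 0.00457) and Mlx (−0.49, edgeR adjusted p = 0.0334) were smaller, and these values stand beside a median over all genes of 0.15. Scaled by library totals instead of TMM, that median was 0.68, and Mlx was at 0.05. Among the partners, Mlxipl was lower in the xenografts on both diets (log2 fold change −5.63 and −5.23, edgeR adjusted p = 2.60e-06 and 3.71e-06), whereas Mlxip was at 0.06 and 0.75 (edgeR adjusted p = 0.767 and 0.00227).

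**Figure D4:**
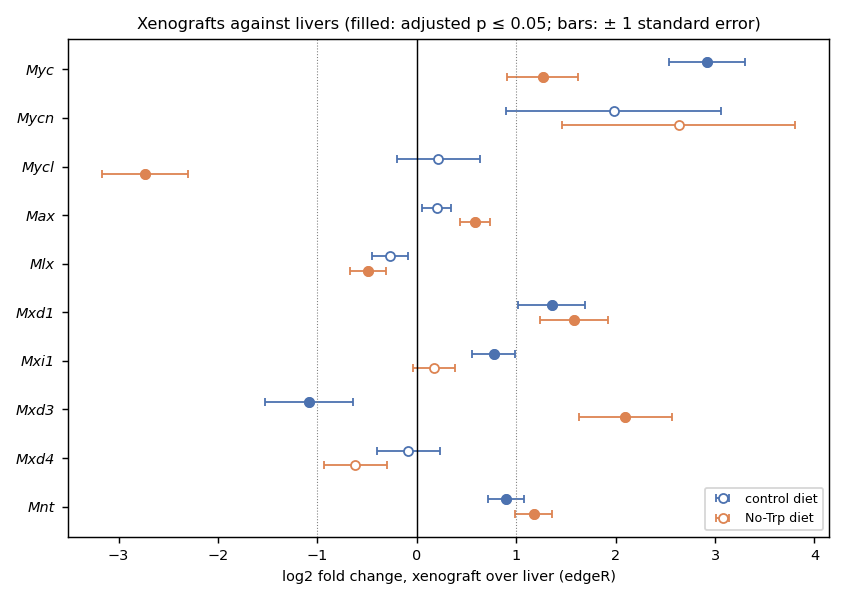
Log2 fold change of each member in HCC53N xenografts against MYC-ON livers (x axis; edgeR) on the control and the No-Trp diet, with bars of 1 standard error and filled points for an adjusted p of at most 0.05. Mxd3 lies at −1.09 with Trp in the diet and at 2.10 without it, Mycl at 0.22 and −2.73, and Myc at 2.92 and 1.27.

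Lists of genes around the network, chosen with earlier results of these data known, place the members beside the genes they act on. The genes of these lists were counted at an adjusted p of at most 0.05. At that threshold 13.3% of all genes rose and 12% fell in the livers, and 0.245% rose and 0.129% fell in the xenografts. In the livers, 33 of 49 tested MYC-activated genes fell and 0 rose on the No-Trp diet (edgeR; 0 with DESeq2 and 0 at an unadjusted p under 0.05), with a median log2 fold change of −1.04 beside −0.00309 over all genes. Hk2, a hexokinase (log2 fold change −1.83, edgeR adjusted p = 0.0317), and Cdc25a, a cell cycle phosphatase (−1.55, edgeR adjusted p = 0.0249), were among those that fell most. The fetal or tumor liver markers summed to less in the same livers, with Gpc3 overlapping between diets. Mycl was higher there and mouse Myc, with its log2 fold change of 1.29, did not pass, while the human transgene was not analysed here. The mean log2 CPM of the 49 genes, set against the control livers, was −0.90, −1.55 and −0.70 in No-Trp livers 105, 107 and 108, in which Myc was at 33.3, 76.1 and 128 CPM. Of 15 proliferation genes, 12 fell (median −2.07), with Mki67 at −2.39 (edgeR adjusted p = 0.0223) and Top2a at −2.32 (edgeR adjusted p = 0.0253). The log2 fold change of Mxd3, −2.38, was of the size of the median of this list. Over the 12 libraries, with log2 CPM centred on the mean of each model, the genes most like Mxd3 among 11668 were Mtfr2 (r = 0.965), Pnrc2 (0.961) and Gas2l3 (0.951). The values were not centred on diet, so genes that moved with the diet alongside Mxd3 have a high r for that reason alone. With each liver left out the median stayed between −1.19 and −0.85 for the MYC-activated and between −2.28 and −1.66 for the proliferation genes. The number of calls moved with those over all genes, whose lower calls went from 1696 to 118, 1 and 70 without control livers 101 and 103 and No-Trp liver 105: the MYC-activated genes lower then numbered 1, 0 and 1, and the proliferation genes 0, 0 and 0. Without No-Trp liver 108, 7 proliferation genes were called.

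In the xenografts 1 of the 49 MYC-activated genes rose, the amino acid transporter Slc1a5 (log2 fold change 1.74, edgeR adjusted p = 0.0436), and 0 fell (0 with DESeq2, 5 at an unadjusted p under 0.05), with a median of 0.11 beside −0.00449 over all genes. Of the 15 proliferation genes 0 passed with edgeR, 2 rose with DESeq2, 10 were higher at an unadjusted p under 0.05 (7.82% of all genes were), and all 15 had a log2 fold change above 0 (median 0.56). Mxd3 had the same sign (0.78). The call of Slc1a5 was lost without any of xenografts 41, 43, 36 and 37, in fits that called 7 to 27 genes higher among all. In the interaction 26 MYC-activated genes and 14 proliferation genes were higher, beside 8.25% of all genes higher and 7.39% lower. The median of the MYC-activated genes, 1.16, stayed between 0.94 and 1.34 with each library left out, and their count became 10 without control liver 103, 15 without xenograft 36 and 15 without xenograft 43. The genes most like Myc over the 12 libraries were Cyp2a4 (r = 0.930), Fam175b (0.915) and Fbf1 (0.903), and those most like Mxi1 were Pafah1b1 (0.938), Hdac5 (0.924) and Tcf4 (0.918). These are descriptions over 12 libraries that share 2 diets.

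**Figure D5:**
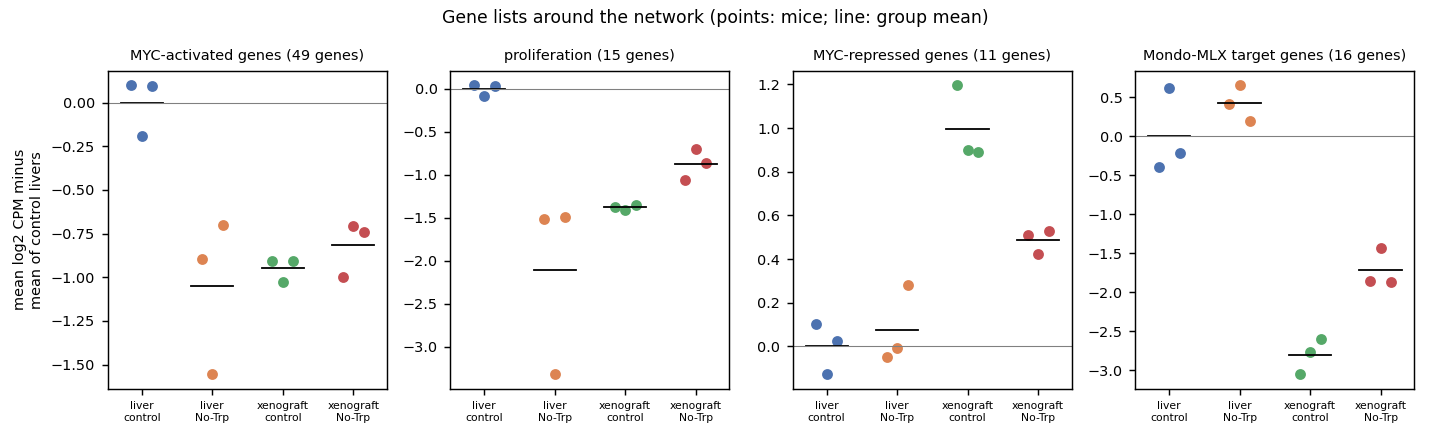
Mean log2 CPM of 4 gene lists in each library (points, 1 per mouse; line: group mean), set against the mean of the control livers at 0; each panel has its own axis. The MYC-activated and proliferation lists lie below the control livers in all 3 No-Trp livers and in all 6 xenografts, and liver 107 is lowest in both (−1.55 and −3.32).

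The counts in the smaller lists stand beside the 13.3% of all genes that rose and the 12% that fell in the livers. Of the 7 corepressor genes through which MXD and MNT act, Sap30 and Hdac1 fell in No-Trp livers (log2 fold change −1.27 and −1.01, edgeR adjusted p = 0.0280 and 0.0229). Of 14 MYC cofactors 5 fell, among them the helicases Ruvbl2 (−1.37, edgeR adjusted p = 0.0326) and Ruvbl1 (−1.17, edgeR adjusted p = 0.0244). Of 10 genes of MYC turnover 5 fell and 1 rose: the MYC-stabilizing phosphatase inhibitor Cip2a, listed as C330027C09Rik, was at −2.13 (edgeR adjusted p = 0.0196), the ubiquitin ligase subunit Skp2 at −2.01 (edgeR adjusted p = 0.0216), and the kinase Gsk3b, which marks MYC for degradation, at 0.50 (edgeR adjusted p = 0.0448). Fubp1, a regulator of the Myc promoter, was the only gene called of 5 in its list (−0.88, edgeR adjusted p = 0.0477). Without control liver 101 or 103 or No-Trp liver 105, the livers without which few of all genes passed, 0 genes of these 4 lists did, while the median of the cofactors stayed between −0.59 and −0.41 and that of the turnover genes between −0.76 and −0.53 with each liver left out. In the xenografts 0 of these 36 genes passed with edgeR or DESeq2. At an unadjusted p under 0.05, 4 corepressors and 2 of the 14 cofactors were lower and 0 of either list higher. Of the turnover genes 1 was higher and 1 lower, and of the Myc locus list 2 were higher and 1 lower. Of all genes 7.82% were higher and 9.07% lower at that p.

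Of 11 genes known to be repressed by MYC, 2 rose in the livers, Ndrg2 (1.29, edgeR adjusted p = 0.0289) and Cebpa (1.04, edgeR adjusted p = 0.0355), both also abundant in hepatocytes, and the cell cycle inhibitor Cdkn1c fell (−1.45, edgeR adjusted p = 0.0398), so that 3 of 11 were called where 25.3% of all genes were. In the xenografts Gadd45a, a stress-induced growth arrest gene, fell (−1.99, edgeR adjusted p = 0.0137). The livers' calls of this list were lost without control liver 101 or 103 or No-Trp liver 105 or 107, with a median of 0.24 to 0.55 with each liver left out, and that of Gadd45a without xenograft 41, 43, 36 or 37. Of 16 Mondo-MLX target genes, 3 rose and 2 fell in the livers. The glucose transporter Slc2a2 (1.67, edgeR adjusted p = 0.0263) and Txnip (1.56, edgeR adjusted p = 0.0373) rose, and the fatty acid synthase gene Fasn (−1.19, edgeR adjusted p = 0.0263) and Arrdc4 (−0.88, edgeR adjusted p = 0.0487) fell, so the list had no common direction there, and 5 of 16 called is near the 25.3% of all genes. In the xenografts 2 rose, Pnpla3 (5.06, edgeR adjusted p = 0.00957) and Acacb (4.11, edgeR adjusted p = 0.0253), both lipid genes, in tumors whose adipocyte markers were also higher. Both started low in the control xenografts, at 0.200 to 0.305 and 0.343 to 0.914 CPM, where 3 reads are 0.12 to 0.183 CPM. With DESeq2 5 of the 16 rose (1.75% of all genes did) and 0 fell. At an unadjusted p under 0.05, 8 were higher (7.82% of all genes) and 1 lower. With 1 xenograft left out, 1 to 3 rose there with edgeR, and in the livers 0 to 7 rose and 0 to 2 fell. Mlx was at 34.3, 29.9 and 37.8 CPM in the control xenografts and at 32.0, 43.2 and 42.7 CPM in these No-Trp xenografts.

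Between the models, 37 of 49 MYC-activated genes were lower and 2 higher in xenografts than in livers on the control diet (median −1.04), where 30.8% of all genes were higher and 28.7% lower at the adjusted p alone. Myc was 2.92 higher on the log2 scale as counted on the mouse gene, and the livers' human MYC, which was not analysed here, is missing from that comparison. Ccnd2 (3.22, edgeR adjusted p = 9.49e-07) and Hk2 (1.27, edgeR adjusted p = 0.0171) were the 2 higher genes, and Srm, the spermidine synthase gene, was lowest (−3.17, edgeR adjusted p = 2.51e-06). Of the proliferation genes 13 of 15 were lower in xenografts under control feeding, as Mxd3 was, and 11 were higher under Trp starvation, again as Mxd3 was, beside 33.2% of all genes higher and 26.4% lower on that diet; that 11 became 6 without xenograft 36 and 7 without xenograft 37. Of the Mondo-MLX targets, 14 of 16 were lower in xenografts on the control diet (median −2.51), beside the lower Mlxipl and the overlapping Mlx. Pvt1, the noncoding neighbor of Myc, was higher in the xenografts on both diets (1.19 and 1.27, edgeR adjusted p = 0.0153 and 0.0114). On the control diet it was the only higher gene of its list, and that count was 0 to 1 with each library left out.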

How the data were processed

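Libraries of polyadenylated RNA from 12 mice were used, in 4 groups of 3. The authors deposited unnormalized counts of reads on each gene, made by trimming with Trim Galore, aligning to mm10 with STAR 2.7.2b, sorting with SAMtools 1.9 and counting with HTSeq, per the labels and the study's methods. The strand setting is not given in the sources used here. Reads that the counting left off genes (24.7% to 39.4% per library) were not used. Replicate libraries differed by 34.6 to 274 times counting noise (chi-square over its degrees of freedom), so none was a duplicate, and whether mice shared a litter is not stated.

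Counts were tested with edgeR 4.0.16 in R 4.3.3 (two-sided glmQLFTest after TMM, filterByExpr and robust glmQLFit). Each diet comparison was fitted on its 6 libraries, and the interaction and the model comparisons on all 12. Standard errors are the log2 fold change over the square root of F. P-values were Benjamini-Hochberg adjusted over all genes tested. Thresholds were an adjusted p of 0.05 and, at both thresholds, a log2 fold change of 1. FPKM used exon lengths of GENCODE M21 (basic set, GRCm38). List values used log2 CPM with a prior count of 2. Markers and counts describe; no set test was run.

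Named genes are the 10 members, every network partner, per other list up to 2 of the highest and 2 of the lowest log2 fold changes among genes past the adjusted p, and the 3 genes most like Myc, Mxd3 and Mxi1 (Pearson r, mean count of at least 100). The members and lists were chosen with earlier results of these data known. Alternatives were DESeq2 1.42.0, RLE factors, library totals, no filter, resubmission as a covariate, a floor of 10 counts in each library, no robust estimation, Rn45s left out, another set of libraries in the fit, no fold threshold, the longest transcript as length, and leaving out each library. The edgeR fit of the diet comparisons and of the interaction was tested on simulated counts with known changes. The model comparisons and the other steps were not. Promoter windows are from RefSeq (GRCm38.p6).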

Additional observations from a re-analysis of the deposited data

Results flagged for a closer look

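The diet effect differed between the models for 3 members, by the interaction term of edgeR's fit over 12 libraries. The effect in xenografts minus that in livers was −1.66 on the log2 scale for Myc (adjusted p = 0.0459), −2.95 for Mycl (adjusted p = 0.0117) and 3.18 for Mxd3 (adjusted p = 0.0115). For Mycl the 3 No-Trp livers stood apart from the other 9 libraries (17.3 to 40.3 against 2.03 to 5.30 CPM), and for Mxd3 they were the 3 lowest (0.923 to 2.23 against 2.67 to 11.7 CPM). For Myc the difference rested on livers 107 and 108, since liver 105 was at 33.3 CPM. Groups of 3 were not tested for a single library that stands apart.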

How the results depend on the processing

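No paired analysis was possible because no groups share animal numbers. Over the members' 902 values under the alternatives, 832 kept direction and side of the threshold, 14 passed only under an alternative, 38 lost the call and 18 changed sign. In the livers 2 members were higher with DESeq2 and 2 in a single fit over 12 libraries (Myc joins Mycl), 2 were lower with no threshold on the fold change (Max joins Mxd3), and with each library left out 0 to 2 were higher and 0 to 1 lower. None was called without control liver 101 or 103. In the interaction 1 member was lower with library totals, 1 with no filter and 1 with resubmission as a covariate (Myc drops out), and 1 to 2 with each library left out. On the control diet 4 members were higher in xenografts with no threshold on the fold change and 1 to 3 with each library left out. The count of members lower there was 0 with library totals, 0 with no filter, 0 with resubmission as a covariate, 0 with only the 6 libraries compared, and 0 to 1 with each library left out. On the No-Trp diet 2 were lower with no threshold on the fold change.

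Changes of sign were all in values that had not passed, except Mlx and the SIN3 subunit gene Suds3 on the No-Trp diet. With library totals, which moved the median of all genes by −0.30 in livers, 0.11 in xenografts and 0.41 in the interaction, Mga in xenografts was at 0.00239, Mlx in the interaction at 0.15, Mxd4 between models on the control diet at 0.0618, and Mlx and Suds3 between models on the No-Trp diet at 0.0496 and 0.16. With resubmission as a covariate Mycl in xenografts was at 0.31 and Mxd4 between models on the control diet at 0.20. With each library left out, the xenograft values ranged from −1.75 to 1.56 for Mycn, −0.29 to 0.0926 for Mycl and −0.52 to 0.15 for Mxd1, and the interaction from −0.68 to 2.65 for Mycn and −0.0563 to 0.62 for Mxd1. Between models on the control diet they ranged from −0.0176 to 2.46 for Mycn, −0.0609 to 0.59 for Mycl, −0.37 to 0.19 for Mxd4, −0.0796 to 0.22 for Mga and −0.11 to 0.20 for Mlxip, and on the No-Trp diet from −0.0712 to 0.34 for Mxi1. The cause was not tested. With 3 mice per group, Mycn at 0 to 20 reads in livers is limited by depth, and the other members by the spread between mice.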

Other observations

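Control xenograft 40 lay within or next to the No-Trp xenografts in several members. It had the lowest Myc of the controls (198 CPM), the lowest Mxi1 (112 CPM), the highest Mxd3 (5.15 CPM) and, with No-Trp xenograft 35, the highest Mycn (150 and 134 reads). It is also the only control xenograft without the mark of resubmission, and its deposit is named unlike the rest of the tumors.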
